A study of Mus musculus with 24 samples.

Results

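The 913 regions described here were places in the mouse genome that carried an H3K27ac peak 4 days after the last weekly prednisone injection in both sexes, with no peak of the same sex's vehicle list under either day 4 peak. They were chosen by presence in the deposited peak lists. Autosomal female day 4 peaks with no base in common with a female vehicle peak were taken as female gains, and male day 4 peaks with none in common with a male vehicle peak as male gains. Gains that shared at least 1 bp were merged, and merged regions that held a gain of each sex were kept as the shared gains. Female gains made up 54197 of 66251 autosomal female day 4 peaks, or 81.8%, and male gains 7881 of 17339 male day 4 peaks, or 45.5%. The 913 regions held 914 of the female gains (1.686%) and 919 of the male gains (11.66%), out of 246108 merged regions and 462829 autosomal peaks in all 8 lists. In 906 regions a single female gain met a single male gain, and the other 7 held more.

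The series measured H3K27ac by chromatin immunoprecipitation and sequencing in myofibers isolated with collagenase from the quadriceps of C57BL/6 mice (the C57BL/6J substrain in the study's methods), 10 weeks old when dosing began. Female and male mice received either vehicle (DMSO) or weekly prednisone at 1 mg/kg for 4 weeks, with vehicle on the days between, and muscle was taken 4, 6 or 8 days after the last injection in the weekly groups. The mice carried no transgene or deletion named in the labels, and the vehicle groups shared the strain and the DMSO with the treated groups. Each of the 8 groups (female and male vehicle, and female and male weekly day 4, day 6 and day 8) had 2 H3K27ac libraries from separate samples and 1 input library, but its peaks were deposited as 1 list, so that the spread between libraries is unknown and no test between groups could be made. Intervals printed with shares are Wilson 95% intervals over regions, which cover counting error only.

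The lists differed widely. Autosomal peaks numbered between 17339 (male day 4) and 121551 (female day 6), and covered between 0.5108% and 6.397% of the autosomes. The depth, recovered from the normalized tag counts, was 7.518 M tags behind the male day 4 list and 27.52 to 50.55 M behind the others. Of 10 myofiber marker genes, 7 to 9 had a promoter peak in 7 of the lists, but only 3 (Mylpf, Actn3 and Pvalb) in the male day 4 list. Promoter peaks of the 6 endothelial markers went from 1 in female vehicle to 5 at female day 4, and from 6 in male vehicle to 0 at male day 4, while the 6 fibroblast markers went from 1 to 3 and stayed at 1. No erythroid marker promoter had a peak in any list. Shared gains lay within 10 kb of 3 myofiber markers (Ckm, Actn3 and Pvalb) and of markers of other cell types, among them Pecam1 and Pdgfra, 1 region each, and the part of other cells in the gains was not tested. In such bulk samples, fewer cells of a type cannot be told apart from less of the mark per cell.

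Acetylation of lysine 27 on histone H3 marks active enhancers and active promoters. Prednisone acts through the glucocorticoid receptor, a nuclear receptor that binds DNA in pairs of half-sites and can recruit acetyltransferases to the enhancers it occupies. In muscle, the receptor is known for genes of the circadian clock, protein breakdown and fuel use. The study called day 4 peaks that were absent from vehicle prednisone-responsive enhancers.

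The sequences of best ranked regions show stretches rich in CpG, which were more frequent in shared gains than in gains of a single sex. Ranking was joint, by the worse of the percentile ranks of the female and the male gain by peak score. Each sequence is the 300 bp of mm10 at the centre of the stretch common to both gains, plus strand, with every CpG in capitals. They come from the windows with at least 15 CpG among the best 2 promoter-centred and best 3 other regions that passed the limits on repeats and untranslated sequence. They lie between genes on chromosome 8 (chr8:19784788-19785087), in intron 1 of S100a11, a calcium-binding protein gene (chr3:93520803-93521102), at the start of Phf14, which encodes a PHD finger protein (chr6:11925597-11925896), and at the start of Plcb4, which encodes a phospholipase C (chr2:135659209-135659508).
chromosome 8, intergenic: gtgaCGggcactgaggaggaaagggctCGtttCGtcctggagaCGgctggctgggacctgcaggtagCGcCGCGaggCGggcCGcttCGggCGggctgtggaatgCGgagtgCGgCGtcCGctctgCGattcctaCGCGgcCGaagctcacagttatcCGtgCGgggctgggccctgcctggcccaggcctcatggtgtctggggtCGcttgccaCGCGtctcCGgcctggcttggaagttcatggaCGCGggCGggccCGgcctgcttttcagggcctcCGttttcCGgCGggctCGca
S100a11 intron: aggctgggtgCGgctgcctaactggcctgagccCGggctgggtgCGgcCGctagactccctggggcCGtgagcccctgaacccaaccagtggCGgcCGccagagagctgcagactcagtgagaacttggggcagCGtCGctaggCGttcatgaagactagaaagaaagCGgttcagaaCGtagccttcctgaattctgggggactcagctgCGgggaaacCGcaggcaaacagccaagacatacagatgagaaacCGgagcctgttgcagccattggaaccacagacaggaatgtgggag
Phf14 promoter: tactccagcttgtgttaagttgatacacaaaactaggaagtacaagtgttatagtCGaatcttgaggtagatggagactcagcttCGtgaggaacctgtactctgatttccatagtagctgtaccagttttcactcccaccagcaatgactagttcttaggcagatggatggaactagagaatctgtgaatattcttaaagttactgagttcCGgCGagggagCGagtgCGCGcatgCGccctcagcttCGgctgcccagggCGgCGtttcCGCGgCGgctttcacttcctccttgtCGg
Plcb4 promoter: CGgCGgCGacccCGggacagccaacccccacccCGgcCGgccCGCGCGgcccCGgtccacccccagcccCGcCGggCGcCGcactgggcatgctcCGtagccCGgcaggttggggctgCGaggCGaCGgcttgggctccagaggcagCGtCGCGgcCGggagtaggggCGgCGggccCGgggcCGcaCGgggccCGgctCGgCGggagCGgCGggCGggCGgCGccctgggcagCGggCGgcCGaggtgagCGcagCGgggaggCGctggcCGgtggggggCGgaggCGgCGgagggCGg

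The Plcb4 window held 47 CpG and was 84.67% GC and the intergenic window 33 CpG at 69.67% GC, while the S100a11 and Phf14 windows held 15 CpG each. The chromosome 8 region ranked high by score but was little above input. Its fold over input was 2.23 in females, the lowest of the shared female gains, and 2.62 in males, against medians of 4.63 and 8.09.

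A second set shows the letters ACANNNTGT, the glucocorticoid receptor consensus that the study searched for, read on both strands, together with the half-site letters AGAACA. A half-site can overlap the consensus. These are the best ranked region outside the gene lists whose window holds a consensus match, 5′ of Wasf2 (chr4:133092338-133092637), and both of the 45 regions at genes of the lists that hold one, in intron sequence of Nrip1, a nuclear receptor corepressor (chr16:76324831-76325130), and of Cacnb1, the beta subunit of the muscle L-type calcium channel (chr11:98005950-98006249).
Wasf2, intergenic: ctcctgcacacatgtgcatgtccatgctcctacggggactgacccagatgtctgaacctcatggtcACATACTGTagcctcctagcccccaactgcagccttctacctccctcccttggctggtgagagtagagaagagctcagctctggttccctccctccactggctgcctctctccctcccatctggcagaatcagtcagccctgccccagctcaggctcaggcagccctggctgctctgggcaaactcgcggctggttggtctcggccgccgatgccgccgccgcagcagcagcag
Nrip1 intron: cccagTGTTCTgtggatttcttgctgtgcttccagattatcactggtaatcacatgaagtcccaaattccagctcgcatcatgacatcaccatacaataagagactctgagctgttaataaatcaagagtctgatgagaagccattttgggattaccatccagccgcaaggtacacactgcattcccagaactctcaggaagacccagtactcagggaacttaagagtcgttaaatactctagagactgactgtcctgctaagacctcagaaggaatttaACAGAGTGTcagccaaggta
Cacnb1 intron: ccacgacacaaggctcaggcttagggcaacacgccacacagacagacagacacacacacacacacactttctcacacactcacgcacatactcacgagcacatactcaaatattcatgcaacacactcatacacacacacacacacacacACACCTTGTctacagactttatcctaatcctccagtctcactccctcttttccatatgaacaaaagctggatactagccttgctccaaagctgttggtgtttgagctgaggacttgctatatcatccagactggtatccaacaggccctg

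The Cacnb1 match abutted a run of CA repeats, and the Nrip1 window held a half-site as well as the consensus. The Nrip1 gains held 15.7 normalized tags in females and 22.6 in males, and the Cacnb1 gains 39.8 and 25.3, with no vehicle peak in either region. Across the shared gains, windows with a consensus match were few: 57 of 913, or 6.243% (4.85 to 8.003). The same letters stood in 9.416% of windows of female gains that were not shared, 7.871% of male gains that were not shared, 4.8% of female day 4 peaks kept from vehicle in both sexes and 6.9% of RefSeq promoters of the same length. Among regions centred outside promoters the share was 6.709% (53 of 790 regions; 5.165 to 8.671), against 9.654% of unshared female and 7.898% of unshared male gains. A match is a description of letters, and no match in a 300 bp window says nothing about the receptor elsewhere in the region.

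The merged region had a median width of 1123 bp (506 to 6265), and the stretch common to both gains a median of 421 bp (4 to 1723). The male gain lay wholly within the female one in 292 regions, and the female within the male one in 14. Female gains in shared regions had a median normalized tag count of 11.8 (4.08 to 101.3; tags in the peak, scaled to 10 M) and male gains 16.0 (7.98 to 159.6), against 6.33 and 14.6 in gains that were not shared. Fold over input had medians of 4.63 in the female and 8.09 in the male gains in shared regions, close to the 4.8 and 8.32 of the unshared gains. Behind these values stood a median of 58 tags in the female gain but of 12 in the male gain, whose Poisson 95% interval runs from 6.201 to 20.96, and the lowest male gain rested on 6 tags. As the rule required a peak in both day 4 lists, these values describe the members and were not tested.

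**Figure D1:**
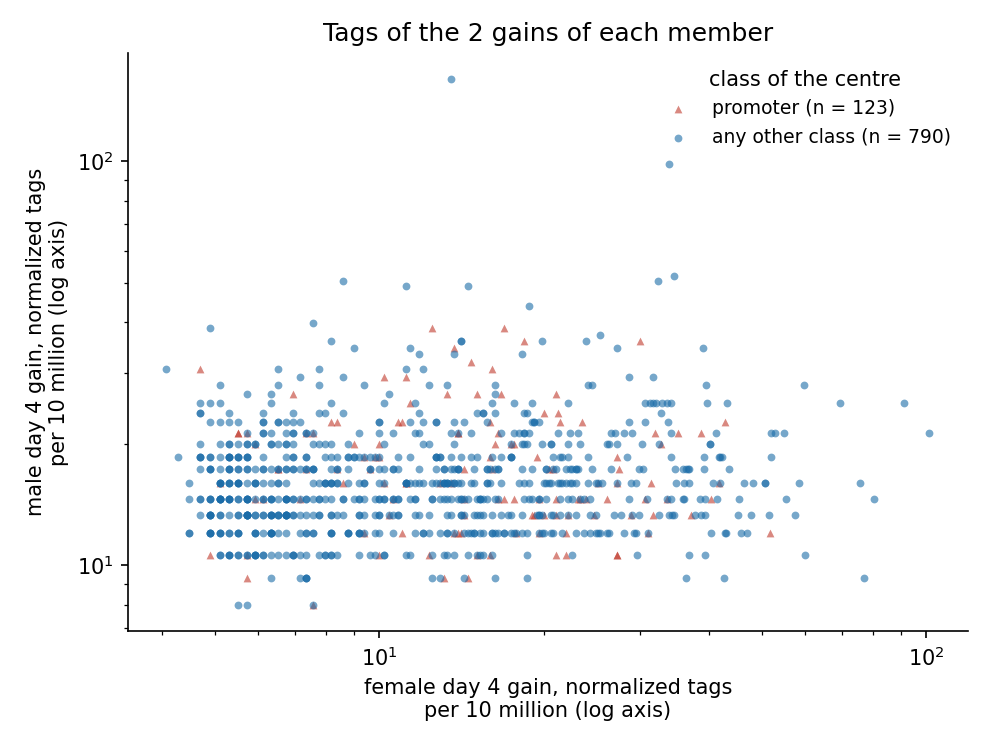
Normalized tags of the female gain (x axis) and the male gain (y axis) of the 913 shared gains, both per 10 M tags on log axes, 1 point per region, with triangles for the 123 centred in promoters. The male values lie in rows because a gain rests on few tags (median 12), while the female values spread from 4.08 to 101.3.

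The limit of 1 bp cut through a continuum. The regions just inside it held 4 bp in common in an intron of Arhgap26, where the nearest coding start is that of Nr3c1, the glucocorticoid receptor gene, 210 kb away (female gain 7.76 and male gain 14.6 normalized tags), and 5 bp in common near Neurog1 (5.31 and 14.6) and in Csf2ra (4.9 and 12.0). Just outside it, gains near Tiam2 abutted with 0 bp between them (5.92 and 13.3), and gains near Rad51b (10.6 and 16.0) and Map4 (27.8 and 16.0) lay 1 bp apart. In all, 97 pairs of a female and a male gain lay under 100 bp apart without overlap.

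A gain over vehicle in one sex was often near vehicle signal. The region as a whole held a peak of the male vehicle list in 248 cases (27.16%; 24.38 to 30.14), which then lay under the female gain beside the male one, and of the female vehicle list in 12 (1.314%; 0.7534 to 2.283). A male vehicle peak lay under 27.13% of shared female gains (24.35 to 30.11) and 25.47% of unshared ones (25.11 to 25.85), so that this overlap was not particular to the shared gains. In all, 656 regions had no vehicle peak of either sex. Of shared male gains, 377 of 919 (41.02%) lay within 1 kb of a male vehicle peak, against 20.81% of the unshared male gains. For shared female gains the share near a female vehicle peak was 8.096%, against 6.023% of the unshared. The male vehicle list held 87199 autosomal peaks and the female one 37614, so that a like distance does not have a like meaning in both sexes.

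The position of the shared gains differed from that of gains found in a single sex. Centres fell in promoters (1 kb before to 100 bp after a RefSeq start) in 123 regions, or 13.47% (11.41 to 15.84), in introns in 495, between genes in 184, in exons in 84 and at transcription ends in 27. Introns and intergenic sequence together held 679 (74.37%; 71.44 to 77.1). Promoters took 4.942% of unshared female gains, 3.433% of unshared male gains and 38.26% of peaks kept in both sexes, with intervals that did not overlap that of the shared gains. Intergenic sequence took 20.15% of the shared gains and 30.95% and 43.41% of the unshared female and male gains. The promoter share depends on the window: with 2 kb before to 500 bp after a start it was 24.75%.

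**Figure D2:**
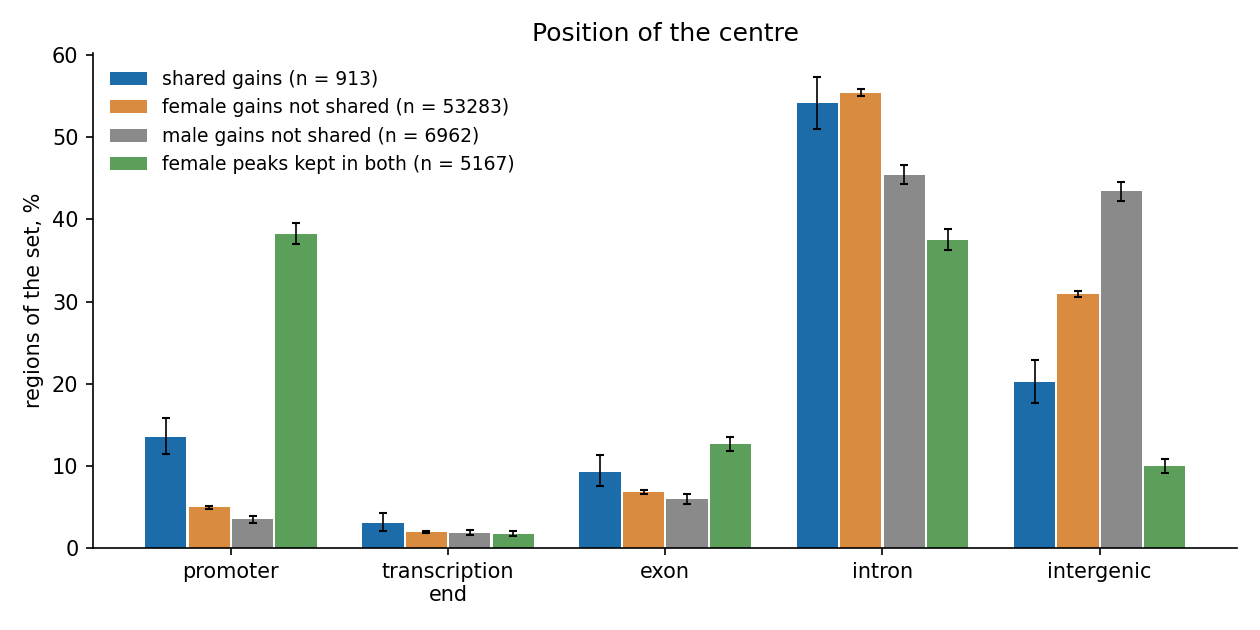
Share of regions (y axis, %) whose centre fell in each annotation class, for the 913 shared gains, the 53283 female and 6962 male gains not shared, and the 5167 female day 4 peaks kept from vehicle in both sexes, with Wilson 95% intervals. Shared gains stood at 13.47% in promoters, between the unshared gains (4.942% and 3.433%) and the kept peaks (38.26%).

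The median distance to the nearest coding start was 9.015 kb, against 24.38 kb for unshared female gains, 28.56 kb for unshared male gains and 0.516 kb for kept peaks. Within 1 kb of a start lay 238 shared gains (26.07%; 23.32 to 29.01), of which 156 lay downstream of it, 81 upstream and 1 exactly 1 kb upstream. The same distance held 8.96% of unshared female and 5.76% of unshared male gains. Every autosome had members, from 21 on chromosome 13 to 86 each on chromosomes 5 and 11, and 49 regions lay within 10 kb of another.

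GC content of the 300 bp window had a median of 53.33% in shared gains, 48.33% in unshared female gains, 46.33% in unshared male gains and 57.67% in kept peaks. At least 15 CpG stood in 18.51% of shared windows, in 6.529% and 3.691% of the unshared female and male windows, and in 49.31% of kept windows. GGGCGG, the letters of an SP/KLF box, was found on either strand in 170 shared windows (18.62%), against 8.708%, 6.406% and 40.26%, and in 35.95% of RefSeq promoters. The difference was also present among regions centred outside promoters, at 14.43% (114 of 790; 12.15 to 17.05) against 6.721% and 5.682%. As the promoter class ends 100 bp after a start, these still included regions near a start. Within 1 kb of a coding start lay 26.07% of all shared gains, against 8.96% and 5.76% of the unshared female and male gains. Among promoter-centred windows alone, 45.53% of shared gains and 46.94% of unshared female gains held it, against 26.78% of unshared male gains (64 of 239; 21.56 to 32.73), whose interval did not overlap that of the shared gains (37.0 to 54.33).

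**Figure D3:**
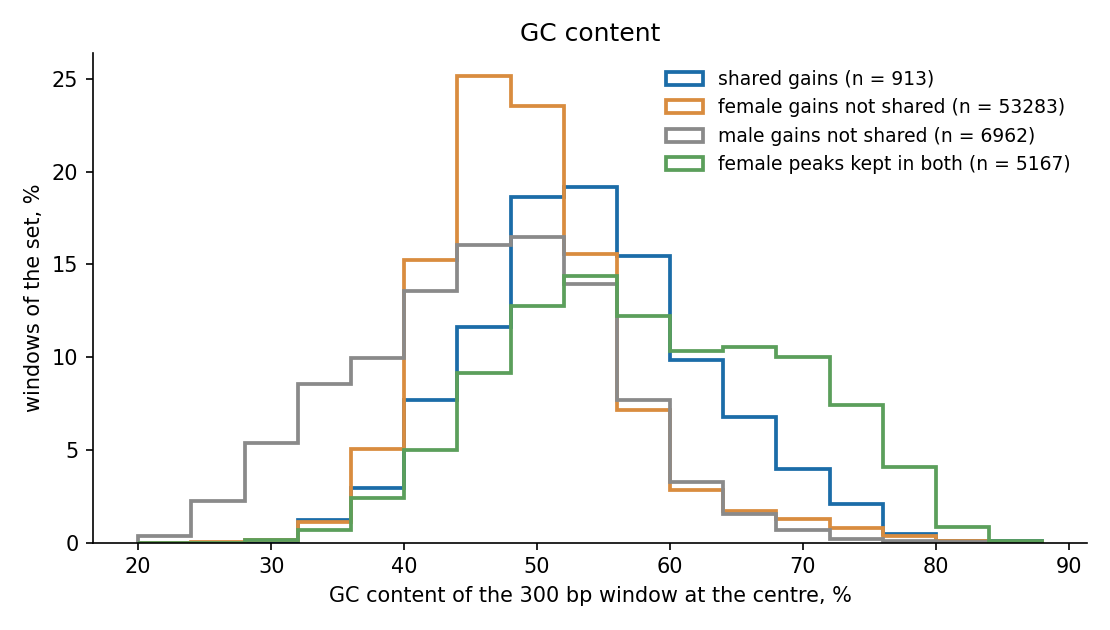
GC content of the 300 bp window at the centre (x axis, %) against the share of windows (y axis, %) in steps of 4 points, for the same sets. The median of the shared gains (53.33%) lies between the medians of the unshared gains (48.33% and 46.33%) and that of the kept peaks (57.67%).

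ETS letters (CCGGAAGT) stood in few windows, 1.205% of shared gains (0.6741 to 2.144), 0.6231% of unshared female gains, 0.2298% of unshared male gains (0.1415 to 0.373) and 4.238% of kept peaks. STAT letters (TTCCNGGAA) stood in 1.314%, 1.062%, 0.632% and 1.219% of the same sets. CAGCTG, the E-box form that MyoD prefers and a subset of CANNTG, stood in 18.84% of shared windows and 18.7% and 13.36% of unshared female and male windows. The MEF2 site was in 6 shared windows, or 0.6572%, against 0.5856% and 0.4309%. The study searched whole peaks with HOMER and found MEF2 family motifs most significant in its long-lived prednisone-responsive enhancers of both sexes. Letters in a 300 bp window are a different measure, so these shares do not bear on that result. AP-1 letters (TGANTCA) were found in 5.915%, against 9.147% of unshared female and 6.564% of unshared male windows. Windows that were over 50% soft-masked repeats made up 11.17% of the shared gains, 8.055% of unshared female gains and 31.21% of unshared male gains.

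Presence at days 6 and 8 was not used to choose the regions. A peak of the female day 6 list met 792 regions (86.75%; 84.39 to 88.79) and one of the female day 8 list 761 (83.35%; 80.8 to 85.63). The male day 6 list met 180 (19.72%; 17.26 to 22.42) and the male day 8 list 199 (21.8%; 19.24 to 24.59). Both female lists and neither male list met 434 regions, all 4 lists met 65, and none met 81. Markers of some other cell types moved with this gap. At female days 6 and 8, promoter peaks were found at 6 and 6 of 6 endothelial, 5 and 6 of 6 fibroblast and 4 and 4 of 4 smooth muscle or pericyte markers, and at male days 6 and 8 at 2 and 0, 1 and 0, and 0 and 0 of them. Satellite cell markers had 2 and 2 of 4 in females and 0 and 0 in males, and Schwann markers 4 and 3 of 4 against 2 and 2. Leukocyte markers had 1 and 1 of 6 in females and 1 and 0 in males, and adipocyte markers 0 and 1 of 4 against 0 and 0. Myofiber markers were also at 9 and 9 of 10 in females and 7 and 7 in males. The part of other cells in the gap was not tested. The female lists of days 6 and 8 held 121551 and 80538 autosomal peaks and the male ones 31982 and 20355. With every list reduced to its 17339 best scoring peaks, 1216 regions were shared, of which 42.93% met a female day 6 peak, 50.08% a female day 8 peak, 37.83% a male day 6 peak and 49.67% a male day 8 peak. That changed the regions as well, since 340 of the 913 overlapped one of those 1216. Counted by the gain itself in the reduced lists, 42.93% of shared female gains (40.17 to 45.73) and 28.98% of shared male gains (26.54 to 31.55) had a day 6 peak of their own sex, and 49.84% and 40.68% a day 8 peak.

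Counted by the gain itself, against the later lists of the same sex, shared gains had later peaks more often than unshared gains. In females 86.21% of shared gains (788 of 914; 83.83 to 88.3) had a day 6 peak and 50.01% of unshared gains (49.58 to 50.43), beside 50.6% of all female gains. At day 8 the shares were 81.29% and 43.23%, beside 43.9% of all. In males 11.97% of shared gains (110 of 919; 10.03 to 14.23) had a day 6 peak and 4.984% of unshared gains (4.497 to 5.521), beside 5.80% of all male gains. At day 8 they were 13.6% and 3.806%, beside 4.95% of all. No pair of intervals overlapped.

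**Figure D4:**
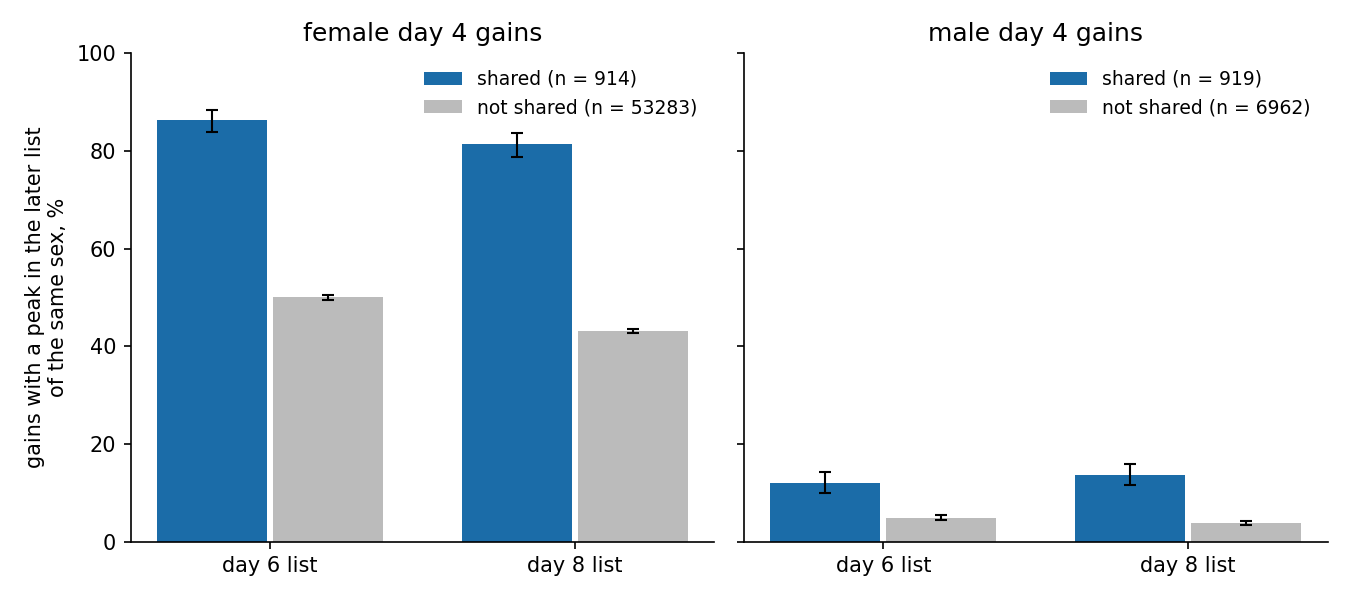
Share of female (left) and male (right) day 4 gains with a peak in the later lists of the same sex (y axis, %), for gains in shared regions and gains that were not shared, with Wilson 95% intervals. In females the shared gains stood at 86.21% and 81.29%, and in males at 11.97% and 13.6%, above the unshared gains in each list.

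Width and signal moved with these shares. The shared female gain had a median width of 902 bp against 501 bp for the unshared, whereas the male gains had a median of 501 bp in both sets. Among female gains of at most 5.31 normalized tags, 63.22% of shared and 29.45% of unshared gains had a day 6 peak, and among those above 9.19, 97.09% and 89.27%. Among male gains of at most 12.0 normalized tags the shares were 10.27% and 3.996%. Above 17.3 they were 11.84% and 8.216% at day 6, where the intervals overlapped, and 17.43% and 6.613% at day 8, where they did not. With every list reduced to 17339 peaks, the day 6 shares of unshared gains were 32.56% in females and 15.43% in males, below those of the shared gains.

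Later peaks over the regions were often far wider than the gains. Those met by shared gains had a median width of 2603 bp in the female day 6 list and 1902 bp in the female day 8 list, against 650 and 682 bp over all peaks of these lists, and the widest at day 8 spanned 67860 bp. In the male day 6 and day 8 lists the medians were 643 and 628 bp, against 501 bp over all peaks. A large normalized tag count at day 6 or 8 therefore belonged in many cases to a broad peak that covered the region and much beyond it. Tags are therefore given below as values of the peak that met the region, and per kb of peak where lists are compared.

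Promoter-centred regions met later peaks most often. Of the 123, 121 (98.37%; 94.26 to 99.55) met a peak in each later female list, and 38 (30.89%) and 47 (38.21%) met one in the male day 6 and day 8 lists. The 184 intergenic regions met them in 73.91% and 69.57% of cases in females and in 18.48% and 16.3% in males. Regions within 1 kb of a coding start met a male day 8 peak in 39.5% of cases (94 of 238; 33.5 to 45.83) and those farther away in 15.56% (105 of 675; 13.02 to 18.48), while at male day 6 the shares were 24.79% and 17.93%, with intervals that overlapped. Regions that held a male vehicle peak met a male day 6 peak in 33.06% (27.51 to 39.14) and a male day 8 peak in 37.5% of cases, against 14.74% and 15.94% of regions without one. These counts are over the merged region, where the male vehicle peak lay outside the male gain, so a later male peak can lie over either. Female gains were also larger in regions with a male vehicle peak, with a median of 22.3 normalized tags against 8.99. With at least 15 CpG the male day 8 share was 34.32% and with fewer 18.95%, but the male day 6 shares were 20.12% and 19.62%.

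**Figure D5:**
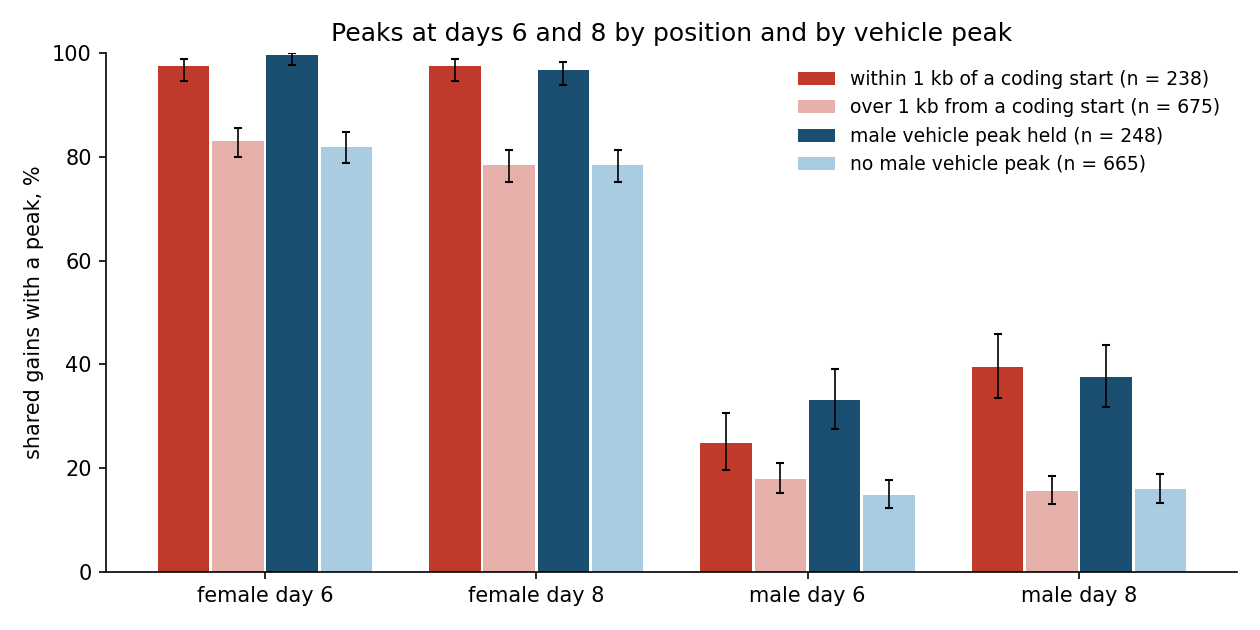
Share of shared gains with a peak in each later list (y axis, %), split by distance to a coding start and by whether the region held a male vehicle peak, with Wilson 95% intervals. Peaks are counted over the whole merged region. At male day 8, 39.5% of regions near a start and 15.56% of those farther away met a peak.

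Among the best ranked promoter regions was the start of Ddx51, a DEAD-box RNA helicase gene (chr5:110652712-110654008). Its peak held 30 normalized tags at female day 4, 216.2 at day 6 and 100.2 at day 8, with none in female vehicle. In males it held 35.9 at day 4 and 8.42 at day 8, with no peak in vehicle or at day 6. Per kb of peak the female values were 23.1, 46.8 and 35.4, highest at day 6, and the male ones 35.7 and 16.8, lower at day 8.

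The Plcb4 promoter, whose sequence is given above, had a peak in all 4 later lists. Per kb of peak it held 10.6, 53.4 and 22.7 normalized tags at female days 4, 6 and 8, and 21.7, 12.3 and 17.7 at male days 4, 6 and 8. The day 4 value was the lowest of the 3 in females and the highest in males, where the limit given above on male lists applies. The promoter of Extl3, a gene of heparan sulfate synthesis, did the same in females with 17.8, 37.9 and 43.0 per kb, and held 21.3, 16.4 and 18.3 in males. Intron 1 of S100a11 went through 19.7, 52.6 and 29.2 in females and 39.3, 14.3 and 18.3 in males. None of these 3 regions met a vehicle peak.

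The other promoters among the best 8 were those of Phf14, Zfp709, Otud6b, Pdgfra and Gm10037. Pdgfra, which encodes a receptor that marks fibro-adipogenic cells rather than myofibers, had a region at its start with 10 normalized tags at female day 4 and 20 at male day 4, and 102.5 and 54.9 in wider peaks at female days 6 and 8. Per kb of peak the female values were 14.2, 24.3 and 16.7 at days 4, 6 and 8. It met no peak in either vehicle list or in the later male lists. The Otud6b region held a male vehicle peak of 17.1 normalized tags beside a male gain of 20, or 26.6 and 39.9 per kb of peak.

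Among the best ranked regions outside promoters, a region on chromosome 4 (chr4:3050607-3051623), whose nearest coding start is that of the vomeronasal receptor gene Vmn1r2, had gains of 11.2 and 30.6, and no other list had a peak there. Upstream of Bahcc1 and Sertad1 the regions held male vehicle peaks of 30 and 19.6 normalized tags, beside male gains of 29.3 and 27.9. The region at Bahcc1 had 34.2 per kb of peak in male vehicle and 27.9 at male day 4, and that at Sertad1 39.1 and 43.3.

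Of the other regions with a peak in all 4 later lists, 1 lay 1.78 kb upstream of Itga7, which encodes the muscle laminin receptor subunit (chr10:128930690-128933119). Its female peaks of days 4, 6 and 8 were 2430, 5201 and 8584 bp wide and held 41.7, 146.3 and 215.1 normalized tags. Per kb of peak these were 17.2, 28.1 and 25.1, and the male values 25.9, 14.3 and 14.3, with no vehicle peak. Others lay in intron 1 of Nrp2, a semaphorin receptor gene, in intron 1 of Dennd5a, in H2bc4, a histone gene, and over Slc8a3, a sodium-calcium exchanger gene of muscle and nerve. Nrp2 and Slc8a3 had male vehicle peaks of 22.1 and 9.8 normalized tags.

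Gene lists were read against the share of all autosomal protein-coding genes with a shared gain over the gene or within 10 kb, which was 992 of 20021, or 4.95%. Nearly all genes of these lists had a female gain, and a share above that of all genes is a description, as no list was tested. Gene length was not taken into account, although a long gene has more room for a region. Known glucocorticoid receptor targets had one in 7 of 29 genes (24.14%; 12.22 to 42.11): Dusp1, Lcn2, Per1, Pik3r1, Rgcc, Sesn1 and Zbtb16. Of these 29 genes, 27 had a female gain and 11 a male gain, against 14398 and 5167 of all 20021.

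Per1, a repressor of the circadian clock, had its region over exon 10 of 23 (chr11:69102095-69103693). The gains held 16.3 normalized tags in females and 14.6 in males, beside a male vehicle peak of 8.54. At female days 6 and 8 the region lay under peaks of 24928 and 19497 bp with 73.9 and 56.6 normalized tags per kb, and it met no peak of a later male list. The region counted for Lcn2, an acute phase protein gene, lay within 10 kb of it but over no gene body, with the start of 1110008P14Rik nearest at 2.2 kb. That region had 7.15 and 22.6 normalized tags at day 4 and no peak in any other list. Sesn1, a stress-responsive regulator of mTOR signalling, had 6.33 and 12.0, a female vehicle peak of 18.9 beside the female gain, and 157.4 at female day 8. The female values per kb of peak were 13.6 in vehicle, 10.1 at day 4 and 31.5 at day 8.

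Dusp1, which encodes a phosphatase that inactivates MAP kinases, and Zbtb16, which encodes a zinc finger repressor, fell outside the rule for named genes and were picked after their values were seen. The Dusp1 region lay 3.25 kb upstream of the start and held 38.8 and 13.3 normalized tags at day 4 and a male vehicle peak of 65.5. The Zbtb16 region held 30.8 and 14.6, a male vehicle peak of 54.4 and a male day 6 peak of 23.5. These values are not per kb of peak. Neither region met a female vehicle peak. The windows at Per1, Dusp1 and Zbtb16 held no match to the receptor consensus.

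Circadian clock genes had a region in 4 of 19 cases (21.05%): Dbp, Nr1d1, Per1 and Rora. The region within 10 kb of Nr1d1, which encodes the repressor REV-ERB alpha, lay over exon 9 of the neighbouring Thra (chr11:98764109-98764634) with 5.92 and 13.3 normalized tags, under a female day 6 peak of 17213 bp. That near Dbp, a clock output factor, lay over exon 2 of Car11 with 9.19 and 13.3.

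Calcium handling genes counted 5 of 21 (23.81%; 10.63 to 45.09): Cacnb1, Camk2b, Jph2, Pvalb and Ryr1. The Pvalb region, in the last intron of the gene for the fast-fiber calcium buffer parvalbumin (chr15:78191810-78197518), met all 4 later lists. It held 91.1 normalized tags at female day 4, 737.7 at day 6 and 543.5 at day 8, and in males 25.3 at day 4, 7.52 at day 6 and 13.1 at day 8, beside a male vehicle peak of 64.8. Per kb of peak, female day 6 was highest of the female lists at 37.3 and male day 6 lowest of the male lists at 10.3. The male vehicle peak was wider than the male gain, and per kb it held 30.2 against 50.5 at male day 4. Its window (chr15:78196989-78197288, plus strand) is given with E-box letters CANNTG in capitals, and holds the MyoD form.
Pvalb intron: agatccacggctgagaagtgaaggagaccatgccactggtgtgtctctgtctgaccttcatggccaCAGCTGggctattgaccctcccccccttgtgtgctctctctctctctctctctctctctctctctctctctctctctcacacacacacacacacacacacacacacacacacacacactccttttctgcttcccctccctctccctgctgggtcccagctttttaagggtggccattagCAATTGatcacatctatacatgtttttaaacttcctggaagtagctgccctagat

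Jph2, which encodes the junctophilin that ties the triad together, held 54.9 normalized tags at female and 21.3 at male day 4, with a male vehicle peak of 34.5 under the same region. Per kb of peak, male vehicle held 32.7 and male day 4 32.4. The Ryr1 region lay in intron 81 of 105 of the calcium release channel gene, with 12.9 and 14.6, and met a later peak in females at day 6 only (171.8).

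In the list of lipid metabolism, 6 of 33 genes (18.18%; 8.611 to 34.39) had a region: Fabp3, Hadhb, Nrip1, Ppard, Pparg and Ppargc1b. Ppard, which encodes the fatty acid sensing receptor PPAR delta, held 3 regions in intron 2, with female gains of 36.3, 9.8 and 29.2 normalized tags and male gains of 17.3, 12.0 and 12.0. A single female day 6 peak of 31332 bp covered all of them, and 2 held male vehicle peaks (71.5 and 36.4). Per kb of peak, those 2 held 22.1 and 26.4 in male vehicle, against 34.5 and 24 at male day 4. Pparg, its relative of fat cells, had a region 551 bp upstream of the nearest start with 21.2 and 23.9 normalized tags, 122.8 and 45.3 at female days 6 and 8 and 8.9 at male day 6. Its values per kb of peak were 15, 77.3 and 28.8 in females at days 4, 6 and 8, and 33.2 and 17.8 in males at days 4 and 6. Hadhb, a subunit of the mitochondrial trifunctional protein of beta oxidation, had 50.8 and 16.0 at day 4 and met male peaks of 13.6 and 10.3 at days 6 and 8, but no female day 6 peak.

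Growth pathway genes (IGF1, PI3K and Akt) had a region in 4 of 22 cases (18.18%): Igf1r, Insr, Pik3r1 and Rptor. Rptor, the scaffold of mTOR complex 1, held 21.9 and 17.3 normalized tags in intron 1, with a male vehicle peak of 15.8 and a male day 8 peak of 9.66. Insr, the insulin receptor gene, held 14.9 and 12.0 with no vehicle peak. Myogenic and MEF2 regulators counted 4 of 25 (16.0%), among them Eya1, Mafa and Mef2c. Eya1, which encodes a transcriptional coactivator, had 6.33 and 16.0 and no peak in any other list.

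Sarcomere genes counted 4 of 29 (13.79%), among them Actn3, Myot and Tnnc1. Actn3, the alpha-actinin of fast fibers, had a region over exon 13 of 21 with 27.2 and 34.6 normalized tags, no vehicle peak, 189.1 and 140.3 at female days 6 and 8 and 4.75 at male day 6. Scaled to 1 kb of peak, the female values were 11.5, 24.2 and 16.9 at days 4, 6 and 8, and the male ones 54.2 and 9.48 at days 4 and 6. The region counted for Tnnc1, the slow troponin C, was centred at the start of the neighbouring Sema3g. The steroid receptor list had 2 of 12 (among them Ncoa3), the atrophy genes 2 of 17 (Acvr2b and Smad2), glucose metabolism 1 of 21 (Gbe1), and membrane, dystrophin complex and repair genes 1 of 19 (Dysf). The last 2 shares, 4.762% and 5.263%, were near the 4.95% of all genes. Intervals for the steroid receptor list (16.67%; 4.697 to 44.8) and the atrophy genes (11.76%; 3.288 to 34.34) also included that value. The Dysf region, in intron 1 of the membrane repair gene dysferlin, held 45.9 normalized tags at female day 4 and a male vehicle peak of 38.6. Per kb of peak these were 18.9 and 41.2, and the male gain rested on 9 tags.

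Few genes held several regions. The body of 575 genes held 1, of 36 genes 2, of 5 genes 3 and of 1 gene 4. That gene was Tacc2, which encodes a coiled-coil protein of the cytoskeleton and is 214.7 kb long. Its regions lay in introns 5 and 6, with female gains of 5.92 to 29.0 and male gains of 10.6 to 23.9 normalized tags, and all of them met peaks at female days 6 and 8, while 1 met a male day 8 peak. A pair of them lay under the same female day 6 peak of 13767 bp. The genes with 3 were Denn2b, Dnmt3a, Ppard, Rbm19 and Slc10a7. In Dnmt3a, the gene of a DNA methyltransferase, 1 region lay 1 kb before a start and 2 in introns. The strongest, in intron 1, held 32.7 and 23.9 normalized tags with 469.9 at female day 6 and 8.1 at male day 8. Per kb of peak, females had 15.9 at day 4 and 44.8 at day 6, and males 47.7 at day 4 and 16.2 at day 8.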

How the data were processed

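Isolated myofibers from the left quadriceps were fixed, and H3K27ac chromatin was precipitated and sequenced. Reads were trimmed (homerTools) and mapped by the authors to the mm10 genome using Bowtie2, and peaks came from findPeaks of HOMER in its histone setting with at least 2-fold enrichment over input. The submitters' processing notes name Bowtie2 2.2.6, TopHat2 2.1.0 and HOMER. Whether both libraries of a group were pooled before calling is not given in the sources used here.

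The authors deposited, per peak, a normalized tag count (signal scaled to 10 M tags), a findPeaks score, a total tag count, which is a whole-number count in the female day 6 and male day 4 lists and scaled to the input depth in the others, and the fold ratio over input. The deposited p-values were not used. Depth was recovered from the normalized tag per whole tag, read from the counts in those 2 lists and from the steps of low values in the others: low values were whole multiples of 1 tag, within 0.0051, in 100% of cases in 7 lists and 98.04% in the male day 8 list.

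Overlaps were counted from 1 bp on 19 autosomes. Centres were classed and motifs searched on the RefSeq annotation and sequence of GRCm38.p6, whose primary chromosomes are those of mm10 (43783 curated transcripts, 20021 coding genes). Sequences are RefSeq's. Python 3.11.15, pandas 2.3.3, NumPy 2.4.6 and SciPy 1.17.1 were used. The overlap, merging and motif steps were tested on simulated data, and the class and nearest-start steps at annotated positions. The members and the gene and motif lists were chosen with earlier results of these data known. Named regions are the 8 best joint ranks in promoters and the 8 best elsewhere, the best 8 with a peak in all 4 later lists, the best 3 per gene list, those nearest the overlap limit and genes with the most regions. No test between groups was made, as each group has 1 list.
Some genes and a sequence are not reported here.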

Additional observations from a re-analysis of the deposited data

Results flagged for a closer look

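Between days 6 and 8 the shared gains that met a peak went from 792 to 761 in the female lists, a ratio of 0.961, and from 180 to 199 in the male lists, a ratio of 1.11. They are named here because the sexes moved in opposite directions. The difference was not tested, since each group has 1 list, and the intervals of the shares at days 6 and 8 overlapped in both sexes. Autosomal peaks also moved in opposite directions from vehicle to day 4, with 1.76 times as many at day 4 in females and 0.199 times as many in males. That difference was not tested either, and the male day 4 list had the lowest depth, at 7.518 M tags.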

How the results depend on the processing

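Of 59 values recomputed under 9 alternatives, 30 stayed inside the interval of the reported value or within 1.5 times a count, and 29 did not, with no cause tested. Shares below are those of shared gains with a female day 6, female day 8, male day 6 and male day 8 peak, in that order, where 4 are given. With gains required to share 50% of the shorter peak, the female shares were 90.3% and 85.76%, introns and intergenic sequence held 70.11% and promoters 16.43%. With no vehicle peak of the same sex allowed within 1 kb, 511 regions were left, with 80.43%, 77.5%, 15.07% and 15.66%, and 2.935% held a vehicle peak. With every list reduced to 17339 peaks the shares were 42.93%, 50.08%, 37.83% and 49.67%, introns and intergenic sequence held 59.95%, promoters 25.66%, and 9.046% held a vehicle peak. Leaving out regions that hold a vehicle peak gave 82.32%, 78.51%, 14.63% and 16.01%, with 0% holding a vehicle peak by construction. Another alternative asked for a deposited total tag count of at least 20 in each day 4 peak. That count is scaled to input depth in the female list and is whole tags in the male one, so the limit differs between the sexes. Only 49 regions were left, with female shares of 95.92% and 89.8%. Introns and intergenic sequence held 55.1% of them, promoters 26.53%, and 22.45% held a vehicle peak. The wider promoter window gave 24.75%. A fold of at least 4 over input and the removal of repeat-rich regions left 639 and 878 regions and moved none of the 8 values beyond those limits. No paired analysis was possible because each group has 1 list and no value per library, and for the same reason no library could be left out in turn. Depth limits the male side most, where the median gain rests on 12 tags.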
